A study of Danio rerio with 12 samples.

Results

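The genes described here encode the machinery that recognises and licenses replication origins: the 6 subunits of the origin recognition complex (*orc1*, *orc2*, *orc3*, *orc4*, *orc5* and *orc6*), the ORC-associated protein gene *lrwd1*, the loading factors *cdc6* and *cdt1*, and *gmnn*, which encodes geminin. Rows were taken by gene name from the table of 22962 genes, and all 10 genes were found. The set was selected on the comparison of sham with injured larvae, in which *lrwd1*, *orc1* and *cdc6* had stood out as lower after injury. The levels and differences between these groups are therefore a description. Calls at a threshold are given only to place each member among all genes, and since the same values chose the set they are no evidence for it.

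RNA was taken from GFP-positive cells sorted by FACS from larval heads of the zebrafish line *mpeg1:GFP* at 4 dpf, in which the promoter of *mpeg1* drives GFP in macrophages and microglia. In the injury group the optic tectum was pierced with a pin and cells were collected at 2 hours post injury (2 hpi), while sham larvae were handled without this lesion. Each library is a pool of about 180 larvae, and the groups compared are 6 sham libraries and the libraries numbered 1, 2 and 4 at 2 hpi. The other 3 libraries at 2 hpi were left out by the authors because of duplication, mapping and clustering, and were not used here.

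Before S phase, ORC binds origins of replication and, with Cdc6 and Cdt1, loads the MCM2-7 helicase onto DNA, which licenses the origin to fire in the following S phase. Geminin binds Cdt1 and blocks further loading until the next cell cycle. LRWD1, also called ORCA, binds ORC and repressive histone marks in human cells and stabilises ORC on chromatin there.

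The depth on genes was 6868772 to 8180104 reads per sham library and 6754699 to 7156275 reads per library at 2 hpi. Levels are given in CPM, reads scaled to a common library size that TMM factors correct, and 3 reads corresponded to 0.349 to 0.466 CPM. Sham replicate 3 stood apart from the other 8 libraries on the second principal component (-62.4, against -27.5 to 29.2). It was also the lowest on the first (-57.8, against -25.8 to 47.3). The summed level of 12 macrophage markers was 9339 to 10997 CPM in sham and 11654 to 12688 CPM at 2 hpi, without overlap. Of the 12, 11 were higher. Past the threshold were *spi1b* (mean 1332 CPM in sham and 1888 CPM at 2 hpi) and *ctss2.1* (209 and 597 CPM). Without these 2 genes the sums of the groups overlapped. The sorted cells also carried 8053 to 11380 CPM of 8 neutrophil markers in sham and 9508 to 12605 CPM at 2 hpi, with 5 of the 8 higher and 3 lower. Of these, *mmp9* (mean 417 CPM in sham and 1850 CPM at 2 hpi) and *mmp13a* (2036 and 3416 CPM) passed as higher. The higher sum at 2 hpi rested on these 2 genes and gives no share of neutrophils. Of the rest of the list, *mpx*, *npsn* and *cpa5* had log2FC values of -0.33, -0.14 and -0.05. Those of *lyz*, *lect2l* and *scpp8* were 0.19, 0.24 and 0.75, and none of these genes passed. Microglial markers summed to 6334 to 9884 CPM in sham and 7833 to 11206 CPM at 2 hpi, and these sums overlapped. All 7 were higher, and *slc7a7* passed (mean 435 CPM in sham and 787 CPM at 2 hpi). Neural progenitor markers summed to 110 to 152 CPM in sham and 95.5 to 136 CPM at 2 hpi. Most of the neural progenitor sum was *notch1a*, with a mean of 120 CPM in sham and 98.1 CPM at 2 hpi. Every other gene of that list had a sham mean of at most 4.69 CPM, and 3 of the 7 were at 0 in some library. Neuron markers summed to 39.8 to 133 CPM in sham, highest in replicate 3, and to 54.3 to 89.1 CPM at 2 hpi. Erythrocyte markers summed to 76.0 to 169 CPM in sham and 97.4 to 151 CPM at 2 hpi. For keratinocyte markers the sums were 45.6 to 83.0 and 52.9 to 85.2 CPM. None of the listed markers was at 0 in every library, and the part of these cell types in the values of the licensing genes was not tested. In bulk RNA of sorted cells, fewer cells expressing a gene and less RNA of it per cell cannot be told apart.

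All 10 licensing genes had a lower mean level at 2 hpi than in sham, with a median log2FC of -1.17, against -0.02 over the 16085 genes tested. The log2FC is the difference in log2(CPM + 0.5) between 2 hpi and sham, estimated with limma, and it understates the change of genes with few reads. At an FDR below 0.01 over all genes tested, 3 of the 10 were called lower (*lrwd1*, *orc1* and *cdc6*) and 0 higher. Among all genes, 0.628% were called lower and 2.13% higher at this threshold, or 101 and 342 genes, against 194 and 257 genes where only the library size set the scale. With other tests, 1 licensing gene was called with edgeR's quasi-likelihood test, 1 with limma-voom and 5 with DESeq2. These tests called 65, 46 and 222 of all genes lower. In limma, 1 licensing gene was called without sham replicate 5, without replicate 1 at 2 hpi or without replicate 4 at 2 hpi. Without sham replicate 3, which stood apart, 2 were called. With each library left out in turn, 43 to 112 of all genes were called lower. For 8 of the 10 genes, every library at 2 hpi lay below every sham library, as for 4.61% of all genes, and the exceptions were *orc4* and *orc6*. A log2FC below 0 was found for 52.1% of all genes. These counts follow from the choice of the set. The FDR values of the members nearest to the threshold were 0.00726 for *orc1* on the inside and 0.0124 for *orc2* on the outside, in limma with Benjamini-Hochberg adjustment.

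**Figure D1:**
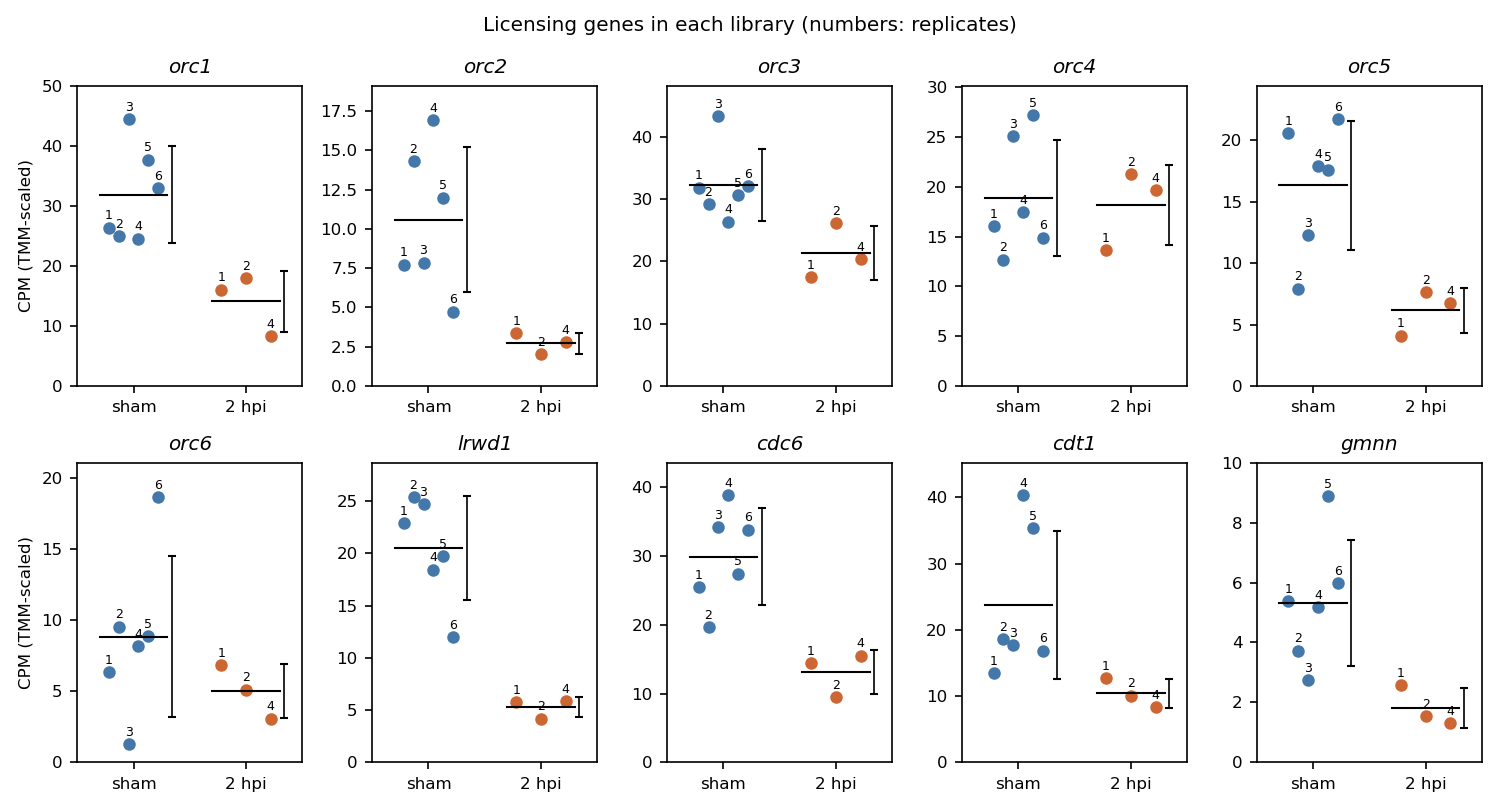
Level of each licensing gene (y axis, TMM-scaled CPM, linear from 0) in the 6 sham libraries (blue) and the 3 libraries at 2 hpi (orange), numbered by replicate. Horizontal lines are means and bars are ± 1 SD; the groups are separate for every gene shown except *orc4* and *orc6*.

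The gene with the lowest log2FC of the set was *lrwd1* (ENSDARG00000035147). In sham libraries 1 to 6 it had 22.9, 25.4, 24.7, 18.4, 19.7 and 12 CPM, and at 2 hpi 5.77, 4.19 and 5.87 CPM in replicates 1, 2 and 4. Sham replicate 6 was the lowest sham library and still lay above all 3 libraries at 2 hpi, which were close to each other. The mean was 20.5 ± 4.99 CPM over the sham libraries (SD, n = 6) and 5.28 ± 0.940 CPM over those at 2 hpi (SD, n = 3), or 25.7% of the sham mean. The log2FC was -1.84 (standard error 0.29), which placed *lrwd1* at rank 35 from the lowest of all genes tested. The values rested on 86 to 218 reads in sham and on 27 to 40 reads at 2 hpi. With each of the 9 libraries left out in turn, its log2FC was between -1.98 and -1.69, and it was called lower every time.

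The ORC subunits differed from each other in how far the groups were apart. The product of *orc1* (ENSDARG00000039217) is the large ATPase subunit of the complex, whose abundance varies over the cell cycle in human cells. Its level was 26.4, 25.0, 44.6, 24.6, 37.8 and 33.0 CPM in sham libraries 1 to 6 and 16.1, 18.0 and 8.36 CPM at 2 hpi. Replicate 4 at 2 hpi was the lowest and sham replicate 3 the highest, and the groups did not overlap. The mean level went from 31.9 ± 8.08 CPM over the sham libraries (SD, n = 6) to 14.2 ± 5.11 CPM over those at 2 hpi (SD, n = 3), with a log2FC of -1.18 (standard error 0.26). This call lay near the threshold (FDR 0.00726 in limma). With each of the 9 libraries left out in turn it was lost 6 times, and the log2FC was between -1.38 and -0.85. It was lost without sham replicates 1, 3, 5 or 6 and without replicates 1 or 4 at 2 hpi. In these 6 fits the FDR ran from 0.0101 without sham replicate 1 to 0.0858 without replicate 4 at 2 hpi. Over all genes, 101 were called lower in the main fit. That count was 70, 62 and 83 without sham replicates 1, 5 and 6. It was 43 and 44 without replicates 1 and 4 at 2 hpi, and 112 without sham replicate 3.

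The subunits encoded by *orc2*, *orc3*, *orc4* and *orc5* form the core of the complex together with Orc1, and Orc4 and Orc5 are, like Orc1, members of the AAA+ family. The level of *orc2* (ENSDARG00000101465) was 7.71, 14.3, 7.84, 16.9, 12 and 4.74 CPM in sham libraries 1 to 6 and 3.34, 2.02 and 2.79 CPM at 2 hpi. The sham values spread over a wide range, yet the lowest of them, in replicate 6, exceeded the highest at 2 hpi. The mean was 10.6 ± 4.61 CPM over the sham libraries (SD, n = 6) and 2.71 ± 0.664 CPM over those at 2 hpi (SD, n = 3), with a log2FC of -1.69 (standard error 0.40), which did not pass the threshold. Only 13 to 22 reads stood behind each value at 2 hpi.

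For *orc5* (ENSDARG00000021579), sham libraries 1 to 6 had 20.6, 7.91, 12.3, 17.9, 17.6 and 21.7 CPM, and those at 2 hpi had 4.1, 7.61 and 6.74 CPM. Sham replicate 2 lay close above replicate 2 at 2 hpi, and the other sham libraries were well above. The means were 16.3 ± 5.26 CPM over the sham libraries (SD, n = 6) and 6.15 ± 1.83 CPM over those at 2 hpi (SD, n = 3), and the log2FC of -1.31 (standard error 0.34) did not pass the threshold. The groups also barely separated for *orc3* (ENSDARG00000008805), with 31.8, 29.2, 43.2, 26.4, 30.6 and 32.0 CPM in sham libraries 1 to 6 and 17.5, 26.1 and 20.4 CPM at 2 hpi. Replicate 2 at 2 hpi came close to the lowest sham library, replicate 4, while sham replicate 3 was far above the others. The means were 32.2 ± 5.80 CPM over the sham libraries (SD, n = 6) and 21.3 ± 4.39 CPM over those at 2 hpi (SD, n = 3), with a log2FC of -0.59 (standard error 0.21), past no threshold.

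Among the core subunits, *orc4* (ENSDARG00000101161) had nearly equal means in both groups. Sham libraries 1 to 6 had 16.0, 12.7, 25.1, 17.5, 27.2 and 14.9 CPM, and libraries at 2 hpi had 13.7, 21.3 and 19.6 CPM. The values at 2 hpi lay inside the sham range. The mean was 18.9 ± 5.86 CPM over the sham libraries (SD, n = 6) and 18.2 ± 4.01 CPM over those at 2 hpi (SD, n = 3). The log2FC of -0.02 (standard error 0.27) leaves no direction to state, since its sign turned in 6 of 23 alternative fits (-0.15 to 0.22). These 6 are not all separate estimates. The fit with a replicate block and those on the libraries numbered 1, 2 and 4 alone gave the same value, 0.22. Within each library, *orc1* minus *orc4* on the log2 scale was 0.47 to 1.12 in sham and 0.23, -0.23 and -1.19 in replicates 1, 2 and 4 at 2 hpi. The difference between these subunits was smaller or turned round in every library at 2 hpi, which restates in part the values that chose *orc1*.

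The smallest subunit is encoded by *orc6* (ENSDARG00000075682), which is bound less tightly to the core in human cells. It had 6.37, 9.54, 1.31, 8.19, 8.87 and 18.7 CPM in sham libraries 1 to 6 and 6.83, 5.12 and 3.08 CPM at 2 hpi. The sham libraries spanned the whole range, from 10 reads in replicate 3 to 134 reads in replicate 6, and the groups overlapped. The log2FC was -0.53 (standard error 0.52). Among sham libraries the coefficient of variation was 64.2% for *orc6*, the highest of the set, against 18.0% for *orc3*, the lowest.

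The licensing factor Cdc6 is an AAA+ ATPase that joins ORC at the origin to recruit the helicase. Its gene, *cdc6* (ENSDARG00000009942), had 25.5, 19.7, 34.2, 38.9, 27.5 and 33.8 CPM in sham libraries 1 to 6 and 14.4, 9.47 and 15.5 CPM at 2 hpi. The lowest sham library, replicate 2, was above all libraries at 2 hpi. The mean level went from 29.9 ± 7.02 CPM over the sham libraries (SD, n = 6) to 13.1 ± 3.23 CPM over those at 2 hpi (SD, n = 3), with a log2FC of -1.15 (standard error 0.25). This call (FDR 0.00577 in limma) was lost as well, 6 times of 9, with single libraries left out, and the log2FC was between -1.28 and -0.94. It was lost without sham replicates 4, 5 or 6 and without any of the 3 libraries at 2 hpi. In these 6 fits the FDR ran from 0.0108 without sham replicate 5 to 0.0496 without replicate 2 at 2 hpi. Fewer genes were called lower over all genes in each of them, 43 to 83 against 101 in the main fit.

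Cdt1 brings the MCM2-7 helicase to the origin, and is degraded or held by geminin once replication starts. The level of *cdt1* (ENSDARG00000051854) was 13.5, 18.6, 17.6, 40.3, 35.4 and 16.9 CPM in sham libraries 1 to 6 and 12.8, 10.1 and 8.36 CPM at 2 hpi. Sham replicates 4 and 5 were well above the other 4, and sham replicate 1 was close to replicate 1 at 2 hpi. The means were 23.7 ± 11.2 CPM over the sham libraries (SD, n = 6) and 10.4 ± 2.21 CPM over those at 2 hpi (SD, n = 3), and the log2FC of -1.05 (standard error 0.32) did not pass the threshold.

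The gene of the inhibitor, *gmnn* (ENSDARG00000035957), had 5.39, 3.72, 2.74, 5.19, 8.87 and 5.99 CPM in sham libraries 1 to 6 and 2.58, 1.55 and 1.32 CPM at 2 hpi. Sham replicate 3 and replicate 1 at 2 hpi almost met. The means were 5.32 ± 2.11 CPM over the sham libraries (SD, n = 6) and 1.82 ± 0.671 CPM over those at 2 hpi (SD, n = 3), with a log2FC of -1.29 (standard error 0.45), not past the threshold, and with 9 to 17 reads per library at 2 hpi. Within each library, *cdt1* minus *gmnn* on the log2 scale was 1.25 to 2.84 in sham and 2.1 to 2.37 at 2 hpi, within the sham range.

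**Figure D2:**
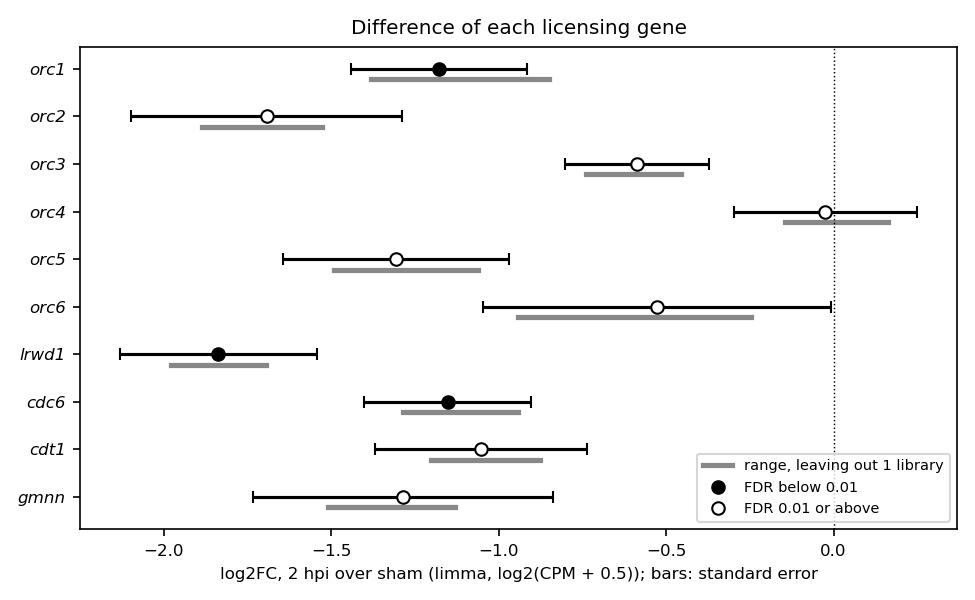
Log2FC of each licensing gene (x axis, 2 hpi over sham, limma on log2(CPM + 0.5)) with its standard error as bars. Filled points had an FDR below 0.01; grey lines span the values with each of the 9 libraries left out in turn. The range of *lrwd1*, -1.98 to -1.69, was far from 0, and that of *orc4* crossed it.

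The level of *lrwd1* was also set against that of the ORC subunits within each library, which restates in part the values that chose it. The log2 level of *lrwd1* minus the mean log2 level of *orc1* to *orc6* was 0.54, 0.76, 0.79, 0.07, -0.00 and -0.55 in sham libraries 1 to 6 and -0.53, -1.14 and -0.38 at 2 hpi. Replicates 1 and 4 at 2 hpi were above sham replicate 6, so the groups overlapped. The mean was 0.27 ± 0.52 (SD, n = 6) in sham and -0.68 ± 0.41 (SD, n = 3) at 2 hpi. The mean log2 level of the 10 genes was 3.89 to 4.36 in sham and 2.90 to 3.10 at 2 hpi, without overlap.

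Neighbouring steps of replication were followed with lists of genes, each read beside the median log2FC of -0.02 over all genes, and the 2 genes of each list with the highest mean CPM, without regard to gene length, are named with those called. The MCM2-7 helicase, which licensing loads onto DNA, had all 6 genes below 0 with a median log2FC of -0.75. Of these, *mcm2* (log2FC -1.01), *mcm6* (-0.80), *mcm5* (-0.78) and *mcm3* (-0.66) were called lower, *mcm4* and *mcm7* were not. The count of 4 was 2 without sham replicates 5 or 6 or without replicates 1 or 4 at 2 hpi, and 1 without replicate 2 at 2 hpi. In these fits 43 to 83 of all genes were called lower, against 101 in the main fit. The count for MCM2-7 was 2 with edgeR's quasi-likelihood test, 2 with limma-voom and 5 with DESeq2, beside 65, 46 and 222 of all genes. The gene with the largest difference, *mcm2*, had 122 to 169 CPM in sham and 68.8 to 81.8 CPM at 2 hpi. The mean log2 level of MCM2-7 was 6.80 to 7.35 in sham and 6.28 to 6.36 at 2 hpi. Within each library, the mean of the 10 licensing genes minus that of MCM2-7 was -3.46 to -2.61 in sham and -3.43 to -3.19 at 2 hpi. Those ranges overlapped only through sham replicate 3 (-3.46), the library that stood apart on the second principal component. The next lowest sham library, replicate 6, was at -3.16, above every library at 2 hpi. That gap was narrow, -3.16 against -3.19, and the comparison restates in part the values that chose the licensing genes. Whether the licensing genes differed by more than the helicase was not tested.

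The loaded helicase is activated by kinases and by factors such as Cdc45, GINS and Mcm10. Of 13 rows tested for these genes, 1 was called lower and 0 higher, 11 were below 0 and the median log2FC was -0.49. The gene called was *cdc7*, which encodes the catalytic subunit of the kinase that phosphorylates MCM2-7, with 17.4 ± 4.87 CPM over the sham libraries (SD, n = 6) and 5.32 ± 1.47 CPM over those at 2 hpi (SD, n = 3) (log2FC -1.60, standard error 0.31). It was not called without replicate 1 or without replicate 4 at 2 hpi, where 43 and 44 of all genes were called lower, against 101. Of this list, 1 row was called lower with edgeR's quasi-likelihood test, 0 with limma-voom and 2 with DESeq2. Of all genes, these tests called 65, 46 and 222 lower. By mean CPM, *wdhd1* and *ticrr* were named, the latter encoding Treslin, an initiation factor, with log2FC values of -0.49 and -0.42 that did not pass. A second row named *wdhd1* had a log2FC of -0.59.

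Genes that control licensing, such as cyclins, CDK2 and the ubiquitin ligases of Cdt1, had 19 rows tested. Of these, 0 were called in either direction by limma, edgeR or limma-voom. By DESeq2 1 was called lower, as by limma without sham replicates 1 or 6. DESeq2 called 222 of all genes lower, and limma 70 and 83 without these replicates. In limma, 8 had an unadjusted p below 0.05, which 17.6% of all genes had, 16 were below 0 and the median log2FC was -0.43. The ligase scaffolds *cul1a* and *cul4b*, named by mean CPM, had log2FC values of 0.30 and -0.43 and did not pass. Of the genes for substrate receptors, *skp2* and *dtl* had log2FC values of -1.06 and -0.91. For both, every library at 2 hpi lay below every sham library, though neither passed. The F-box protein genes *fbxo31* and *ccnf* of the list had log2FC values of -0.06 and -0.55, and for both the groups overlapped. The genes *skp2*, *dtl*, *fbxo31* and *ccnf* were named after their values had been seen.

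The list labelled chromatin partners of LRWD1 held genes for histone methyltransferases, HP1 proteins and the maintenance DNA methylation machinery. The label is that of the list, and binding of each protein to LRWD1 was not checked here. Of its 13 tested genes, 1 was called lower, 13 were below 0 and the median log2FC was -0.52. The gene was *uhrf1*, the partner of Dnmt1 at hemimethylated DNA, with 182 ± 18.8 CPM over the sham libraries (SD, n = 6) and 114 ± 28.1 CPM over those at 2 hpi (SD, n = 3) (log2FC -0.70, standard error 0.15). No gene of the list was called without sham replicate 1 or without replicate 1 at 2 hpi, and 2 were called without sham replicate 6 or without replicate 2 at 2 hpi. With other tests, 0 were called lower with edgeR, 1 with limma-voom and 2 with DESeq2, beside 65, 46 and 222 of all genes. The maintenance methyltransferase gene *dnmt1* had a log2FC of -0.55 and did not pass. The E2F and RB families, which control transcription of replication genes, had 13 tested genes, all below 0, with a median log2FC of -0.53 and 1 called lower, *e2f3* (log2FC -1.11, standard error 0.25). That call was lost without sham replicates 2, 3, 4, 5 or 6 and without replicates 1 or 4 at 2 hpi. With 1 library left out, 43 to 112 of all genes were called lower, against 101 in the main fit. Of the E2F and RB genes, 0 were called lower with edgeR, 0 with limma-voom and 2 with DESeq2, under the same counts over all genes. The RB family gene *rbl1* and *e2f8*, which encodes a repressor of the E2F family, had log2FC values of -0.54 and -0.53 and did not pass.

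Genes of G2/M and mitosis represent the later part of the cell cycle. None of 20 tested genes was called in limma, edgeR, DESeq2 or limma-voom, 4 had an unadjusted p below 0.05 (17.6% of all genes), 19 were below 0 and the median log2FC was -0.24. This median moved with the libraries, to -0.04 with 11 genes below 0 without replicate 1 at 2 hpi, and to -0.42 with 19 below 0 when only the libraries numbered 1, 2 and 4 of both groups were compared. On those libraries the medians were -0.32 for licensing control and -0.43 for E2F and RB, so the order of these lists was not stable. The proliferation marker *mki67* had a log2FC of -0.29 and the topoisomerase gene *top2a* one of -0.15, without passing. The mean log2 level of these genes was 5.24 to 5.95 in sham and 4.98 to 5.53 at 2 hpi, where the lowest value was that of replicate 1. The groups thus overlapped for this mean. They did not overlap for the licensing genes, for MCM2-7, for licensing control (4.69 to 5.10 in sham, 4.44 to 4.54 at 2 hpi) or for E2F and RB (5.16 to 5.30 in sham, 4.54 to 4.87 at 2 hpi).

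**Figure D3:**
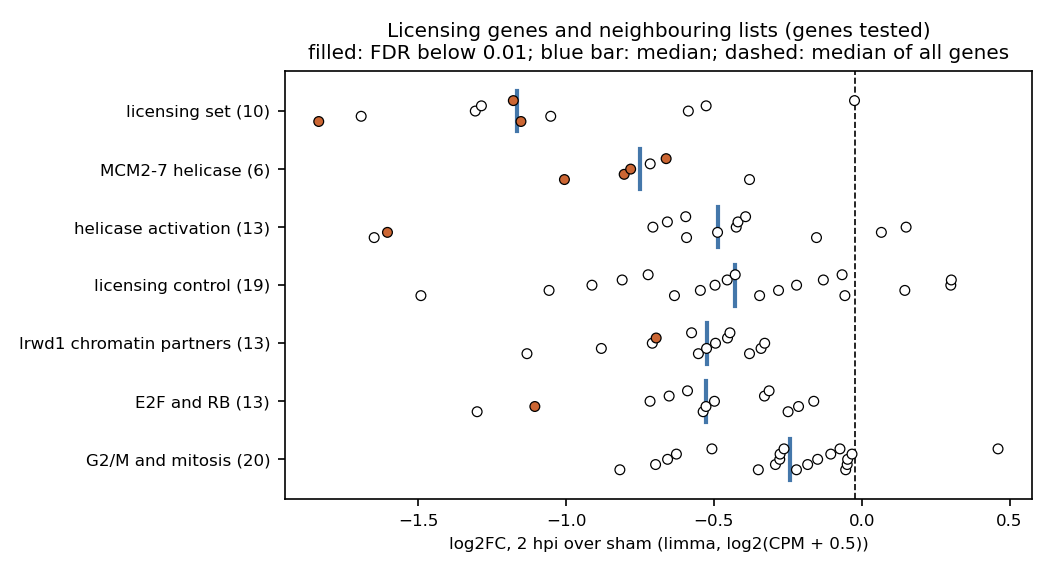
Log2FC (x axis, 2 hpi over sham) of each gene tested in the licensing set and the neighbouring lists, with the number of genes in brackets. Filled points had an FDR below 0.01, blue bars are medians and the dashed line is the median of all genes, -0.02; medians ran from -1.17 in the licensing set to -0.24 in G2/M and mitosis.

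**Figure D4:**
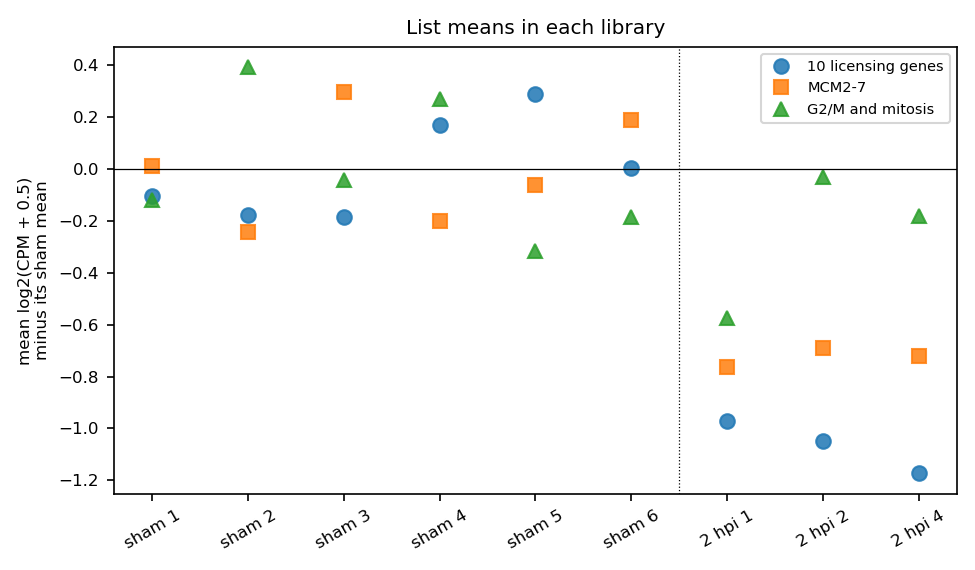
Mean log2(CPM + 0.5) of the 10 licensing genes, MCM2-7 and the G2/M list in each library (x axis), minus the sham mean of the same list. Licensing genes and MCM2-7 at 2 hpi lay below the whole sham range, and the G2/M genes overlapped it.

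The set was chosen on the difference between the groups, whose statistics use the size of the spread among sham libraries. That choice did not use how each licensing gene varied with MCM2-7 across sham libraries, so this relation was tested there, over 6 libraries. For 10 genes, Pearson's r and Spearman's rho with the mean log2 level of *mcm2* to *mcm7* were computed, with two-sided exact permutation p-values over 720 orders. None of the 10 passed an adjusted p below 0.05, and 2 had an unadjusted p below 0.05 for r. The highest was *orc3* (r = 0.865, exact permutation p = 0.00694, adjusted p = 0.0694; rho = 0.943, exact permutation p = 0.0167, adjusted p = 0.167). Without sham replicates 2 and 3, the libraries farthest from the median, r was 0.860 over 4 libraries. The lowest was *orc2* (r = -0.836, exact permutation p = 0.0472, adjusted p = 0.236; rho = -0.771, exact permutation p = 0.103, adjusted p = 0.343), with r = -0.989 without these libraries. For *lrwd1*, r was -0.245 (exact permutation p = 0.671, adjusted p = 0.671) and rho was -0.200 (exact permutation p = 0.714, adjusted p = 0.793), with r = -0.630 without these libraries. Across the 45 pairs of licensing genes in the sham libraries, r was above 0 for 25, with a median of 0.0309, and ran from -0.755 for *orc3* with *orc6* to 0.814 for *orc1* with *orc3*. These pairs were described and not tested. Variation of single licensing genes with MCM2-7 within sham was not detectable with these 6 libraries after adjustment.

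Genes whose pattern was most like that of the called members were sought over all 9 libraries among 11400 genes, by Pearson's r of log2(CPM + 0.5). These values are a description and include the difference between the groups. Closest to *lrwd1* were *ccbl1* (r = 0.968), *cnot3b* (0.967), *jade1* (0.966), *CBFA2T3* (0.963) and *itgb5* (0.960). Closest to *orc1* were *cbx5* (r = 0.990), *six5* (0.961), *mtbp* (0.961), *mcm6* (0.957) and *aldh5a1* (0.954). Closest to *cdc6* were *CABZ01054962.1* (r = 0.995), *ankrd10b* (0.984), *helq* (0.966), *ankrd44* (0.962) and *serac1* (0.957). No gene was on more than 1 of these lists.

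Reads of overlapping genes cannot be told apart where the counting used no strand, and the strand setting is not given in the sources used here. In the RefSeq annotation of the assembly GRCz12tu, which is not the build of the reads, the locus of *orc1* overlaps *mpl* (log2FC -0.67), that of *orc5* overlaps *lhfpl3* (0.55), that of *orc6* overlaps *mylk3* (-1.72) and that of *cdt1* overlaps *aprt* (0.12). None of these was called. The locus of *lrwd1* annotated in that assembly spans many other genes, and whether it does so in GRCz10 was not checked. Of these genes 9 were tested, with 0 called and a median log2FC of -0.03 (-0.68 to 0.14). Whole loci were compared here, while the authors counted reads on exons, so an overlap does not show that reads were shared.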

How the data were processed

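The deposited table holds 1 signal value per gene and library, which the authors made by trimming with cutadapt 1.9, aligning to GRCz10 with STAR 2.5.2b, counting with featureCounts 1.5.1, removing genes with near-zero counts and scaling to TMM-normalised CPM with edgeR 3.20.1 (names and versions from the submitters' processing notes). The annotation release and strand setting are not given in the sources used here. The cDNA had been amplified before library preparation. Columns of the authors' own comparison (fold changes, p-values, FDR) and group means were not used.

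Dividing by what 1 read is worth in a library gave whole numbers (100% of values within 0.01), so reads could be recovered. Genes were kept with filterByExpr of edgeR 4.0.16 (minimum count 10, minimum total count 15), which left 16085 of 22962. All 10 licensing genes passed. The comparison of 6 sham with 3 injury libraries was fitted with limma 3.58.1 (R 4.3.3) on log2(CPM + 0.5), with condition as the only factor, a variance trend and Benjamini-Hochberg adjustment over all genes tested, and was tested on simulated data. For RT-qPCR the authors paired sham and injury cDNA made on 1 day, in part from sequenced samples, but no source used here ties a replicate number to a day. The p-values weigh the difference between the groups against the spread between these libraries, moderated over all genes. Each library is a pool, so the spread among single larvae is not seen. No replicates were near-duplicates. Members and lists were chosen with earlier results of these data known.

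Named genes were the 10 members, the genes of each other list with an FDR below 0.01, the 2 with the highest mean CPM per list, and the 5 genes most like *lrwd1*, *orc1* and *cdc6* among genes with at least 5 CPM. Of the listed genes, *donson*, *gmnc* and *mcidas* were not found under these names. Alternatives were RLE, upper quartile and library-size scaling, pseudocounts of 0.1 and 1, other filters, an FDR of 0.05, a replicate block, leaving out each library, and DESeq2 1.42.0, limma-voom and edgeR's quasi-likelihood test on the recovered reads, the last of which called 391 genes in all against 443 in limma. Fits on the libraries numbered 1, 2 and 4 alone were chosen after seeing the data. Sequences of the members were not used here. Figures were drawn with matplotlib 3.10.9 (Python 3.11.15).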

Additional observations from a re-analysis of the deposited data

Results flagged for a closer look

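For *orc3*, sham replicate 3 had 43.2 CPM, and its gap to the nearest sham library was larger than Dixon's 95% limit for 6 values allows. Without this library the log2FC of *orc3* was -0.50 and did not pass. The highest and the lowest sham library were checked for each of the 10 licensing genes, 20 checks in all, and chance marks about 1 in 20 groups in this way. Sham replicate 3 is also the library that stood apart in the principal component analysis.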

How the results depend on the processing

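The number of licensing genes called lower, 3 with limma, moved with the test and the threshold. It was 1 with no filter on low reads, 5 at an FDR of 0.05, 1 with edgeR's quasi-likelihood test, 5 with DESeq2 and 1 with limma-voom. In the fit added after seeing the data, on the libraries numbered 1, 2 and 4 alone, it was 1. With each library left out in turn it was 1 to 4, with 1 without sham replicate 5, without replicate 1 at 2 hpi or without replicate 4 at 2 hpi. In the other alternatives it was 2 to 4, and *lrwd1* was called lower in all 23 alternatives, with a log2FC of -1.98 to -1.69. The number of genes without overlap between the groups was 8 also without TMM factors. It was 8 with each library left out too, but leaving out a library cannot make separate groups overlap. Those counts could therefore not fall and say nothing on stability. All members except *orc4* had a log2FC below 0 in every alternative that tested them, and *gmnn* was not tested under a minimum of 10 reads per library. Where only the library size set the scale, the median log2FC of all genes shifted by -0.11, with 194 genes lower and 257 higher against 101 and 342. Among all genes, 65 were lower and 326 higher with edgeR, 222 and 493 with DESeq2, 46 and 354 with limma-voom and 326 and 586 at an FDR of 0.05. With no filter, 61 were lower and 281 higher. On the libraries numbered 1, 2 and 4 alone, 43 were lower and 300 higher. With each library left out in turn, 43 to 112 of all genes were lower.

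Over the 23 alternatives, the number called lower was 1 to 5 of 6 in MCM2-7 and 0 to 2 in helicase activation. It was 0 to 1 in licensing control and in G2/M. It was 0 to 4 in the chromatin list and in the E2F and RB genes. With a replicate block for the numbers 1, 2 and 4, 3 licensing genes were called lower (*lrwd1*, *cdc6* and *orc2*, the last with a log2FC of -2.02 and an FDR of 0.00188 in limma), while *orc1* had a log2FC of -0.89 and an FDR of 0.0310, and 2 of MCM2-7 were called. Sham replicates 3, 5 and 6 were alone in their blocks and did not enter these log2FC values. The values therefore equal those of the fits on the libraries numbered 1, 2 and 4 alone. Same-numbered libraries correlated at 0.131, 0.109 and 0.0245 in their deviations from the group means. For replicates 1 and 2 at 2 hpi this was the highest value, with 0.0631 and 0.0901 next. Replicate 4 at 2 hpi had 0.0265 with sham replicate 3, barely more than with its own number. These values do not settle whether the numbers are pairs, and the main fit used no block. Among all genes, 148 were lower and 484 higher with the block. Few reads limit *gmnn* and *orc2* most, and *orc6* as well, with 9 to 45 reads per library at 2 hpi over these genes. The reads at 2 hpi were also few for *lrwd1* (27 to 40) and *orc5* (27 to 49).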
